A study of Mus musculus with 12 samples.

Results

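The genes that write and remove DNA methylation were followed in the established mouse line 10T1/2, whose cells are mesenchymal and fibroblast-like (spelled CH310T1/2 in the sample labels, genotype WT). The family was taken by gene symbol from the deposited count table and holds 6 of its 56748 genes, namely the DNA methyltransferases Dnmt1, Dnmt3a and Dnmt3b and the TET dioxygenases Tet1, Tet2 and Tet3. All 6 were among the 16465 genes that passed the filter on low counts and were tested. RNA was sequenced from 12 libraries, 4 in each of 3 groups that differed in the matrix and in 1 drug. Cells of every group spent 1 h in suspension under serum starvation (with 0.5% serum by the labels, without serum by the study's methods), followed by 18 h on a hydrogel of 12 kPa that carried type I collagen (0.05 mg/mL). The collagen stood alone in col1, it was polymerized with 30 nM recombinant ACLP (aortic carboxypeptidase-like protein, a secreted protein that binds collagen) in col1-ACLP, and col1-ACLP+SB had the ACLP matrix together with SB431542, an inhibitor of the TGFβ receptor kinase ALK5, at 5 µM. No library had SB431542 on collagen without ACLP, so an action of the drug itself and its action on the response to ACLP cannot be told apart. All libraries came from 1 cell line, and in bulk RNA a smaller number of expressing cells and a lower level per cell cannot be told apart.

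DNA methylation in mammals is the addition of a methyl group to cytosine, mostly where a guanine follows (CpG). DNMT1 copies the methylation pattern onto the new strand after replication, guided by the reader UHRF1, whereas DNMT3A and DNMT3B set methylation on unmethylated DNA. TET1, TET2 and TET3 oxidise methylcytosine with 2-oxoglutarate, iron and oxygen, and the oxidised bases are diluted by replication or cut out by the glycosylase TDG. The methyl group comes from S-adenosylmethionine, which the one-carbon pathway helps to supply. RNA levels of these genes were measured here, and neither the proteins nor the methylation of DNA was.

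The 6 genes lie on different chromosomes, in GRCm39 coordinates of the deposited table. Dnmt1 spans chr9:20818505-20871184 (minus strand), Dnmt3a chr12:3856007-3964443 (plus) and Dnmt3b chr2:153491370-153529650 (plus). Tet1 spans chr10:62640349-62744775, Tet2 chr3:133169440-133250900 and Tet3 chr6:83339355-83436066, all on the minus strand. Tet2 and Dnmt3b are the genes that passed the test in any comparison, so the sequence upstream of each is shown. Both are given 5′ to 3′ on the strand of the gene, from the GRCm39 genome with GENCODE vM39 annotation, with CpG in capitals. The Dnmt3b stretch is the 250 bases before the start of its canonical transcript, at chr2:153491073-153491322 on the plus strand, within an intron of a longer annotated transcript and over an exon of the antisense lncRNA Dnmt3bos. It holds 17 CpG. The Tet2 stretch is the 111 bases of the same window that lie outside the annotated exons of the gene, at chr3:133250901-133251011 on the minus strand, and it holds 5 of the 17 CpG in the full window.
Dnmt3b: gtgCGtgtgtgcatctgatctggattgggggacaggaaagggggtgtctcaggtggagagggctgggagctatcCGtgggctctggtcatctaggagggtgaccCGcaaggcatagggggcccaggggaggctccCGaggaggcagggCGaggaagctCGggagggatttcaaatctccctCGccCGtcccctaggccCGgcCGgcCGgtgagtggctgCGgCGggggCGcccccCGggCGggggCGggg
Tet2: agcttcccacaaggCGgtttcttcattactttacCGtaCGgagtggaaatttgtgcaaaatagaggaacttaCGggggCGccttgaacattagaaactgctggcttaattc
Across the 250-base windows of 21630 protein-coding genes the median was 8 CpG. Dnmt3a had 39 and Tet3 had 38, above 99.2% and 99.0% of all windows, respectively. Dnmt1 had 7 and Tet1 had 2, in windows at chr9:20864276-20864525 and chr10:62715794-62716043 that overlap annotated exons of the gene itself. Both lie inside the gene spans given above, so they do not show the sequence before the outermost annotated start. The windows of Dnmt3a and Tet3 also lie inside the gene spans, but over no annotated exon. The GC box GGGCGG, searched on both strands, was found in the windows of Dnmt3a, Tet3, Dnmt3b and Tet2, and 36.4% of all windows held it. None of the 6 windows held the E2F letters TTTCCCGC, TTTCGCGC, TTTGCCGC or TTTGGCGC (2.2% of all windows), the TEAD letters GGAATG (12.1%) or the SMAD palindrome GTCTAGAC (0.2%), searched in the same way. A match or its absence describes these letters in this window alone.

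The study's RT-qPCR primers for Dnmt3b are shown because they mark the part of the transcript that its assay reads. They are printed in lower case. Both lie in exon 2 of the canonical transcript, the first at chr2:153503393-153503412 on the plus strand and the second, printed as the reverse strand reads, at chr2:153503445-153503464. They bound 72 bases and match 31 of the 33 annotated Dnmt3b transcripts, so this pair would read nearly every annotated form.
Dnmt3b forward primer: agcgggtatgaggagtgcat
Dnmt3b reverse primer: gggagcatccttcgtgtctg

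The libraries held 29246154 to 52201922 counts. Replicates of a group were not copies of each other, since a chi-square test of their counts gave 7.49 to 20.1 per degree of freedom for each pair, and all 12 libraries were kept as separate samples. On the first principal component col1 replicate 2 stood at -86.7, apart from the other col1 libraries (-11.1 to -8.97) and from the remaining libraries (10.0 to 20.6). Values without this library are given for the 6 genes and for the calls that its removal ended. Without it 0 of the 6 genes other than Tet2 passed on col1-ACLP against col1, with adjusted p = 0.343 for Dnmt1, 0.603 for Dnmt3a, 0.667 for Tet1 and 0.798 for Tet3 by edgeR. With SB431542 against col1 0 of the 6 passed without it (adjusted p = 0.352 to 0.993, lowest for Dnmt3a and highest for Tet3). All 10 mesenchymal markers were tested, led by Col1a1, Col1a2 and Vim, and their summed level was 25448 to 26366 CPM on col1, 35211 to 43454 on col1-ACLP and 32167 to 37660 on col1-ACLP+SB. Col1a1 and Col1a2 carried this sum. They were the 2 markers that rose on col1-ACLP, whereas 5 fell (Pdgfra, S100a4, Twist1, Prrx1 and Pdgfrb, by 0.15 to 0.76 on the log2 scale), and the median was -0.15. Of all tested genes 9.52% rose and 8.41% fell there. None of the 5 pluripotency markers (Pou5f1, Nanog, Zfp42, Dppa3 and Dnmt3l) passed the filter, and their sum was at most 0.530 CPM in any library. The sums for endothelial, leukocyte, epithelial and muscle markers were at most 9.85, 10.7, 4.84 and 2.65 CPM. Of these markers 1 of 4, 2 of 4, 2 of 4 and 1 of 3 passed the filter, in the same order. Kdr, Adgre1, Epcam and Myod1 had means of 0 on col1 and on col1-ACLP, whereas on col1-ACLP+SB every endothelial marker, Kdr among them, had counts in at least 1 library. Tek, an endothelial receptor kinase, and Cd68, a lysosomal protein of macrophages, held most of the endothelial and leukocyte sums. The mean of Tek was 6.45 CPM for col1 and 8.87 for col1-ACLP, and with SB431542 it fell to 4.90 (by 0.86 on the log2 scale against col1-ACLP, adjusted p = 0.0116). Cd68 fell from 9.47 to 6.73 CPM on col1-ACLP (by 0.49, adjusted p = 0.0284). The part of these markers in the levels of the 6 genes was not tested.

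Levels of different genes were compared per length, as FPKM (CPM scaled by TMM factors, per kilobase of the gene length in the table). Dnmt1 was the highest, with a mean of 11.6 FPKM over the 12 libraries (range 10.8 to 13.0), above 74.3% of tested genes. Tet3 followed at 7.34 FPKM (6.66 to 8.47) and Dnmt3a at 5.76 (5.16 to 6.17). Tet2 stood lower at 1.94 FPKM (1.48 to 2.30), Dnmt3b at 1.30 (0.844 to 1.64) and Tet1 at 1.19 (0.975 to 1.41). The ranges of Dnmt1, Tet3, Dnmt3a and Tet2 did not overlap each other in this order, whereas Tet2 overlapped Dnmt3b, and Dnmt3b overlapped Tet1. Dnmt3l, the cofactor of DNMT3 enzymes in germ cells, was at 0.253 ± 0.227 CPM on col1 (SD, n = 4). Maintenance methyltransferase RNA thus led the writers, and Tet3 led the TET genes. The table lengths sum the exons of all transcripts and ran from 5106 bases for Dnmt3b to 16870 for Tet2, so the order depends on them. By CPM, without length, Tet3 came ahead of Dnmt3a and Dnmt1.

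**Figure D1:**
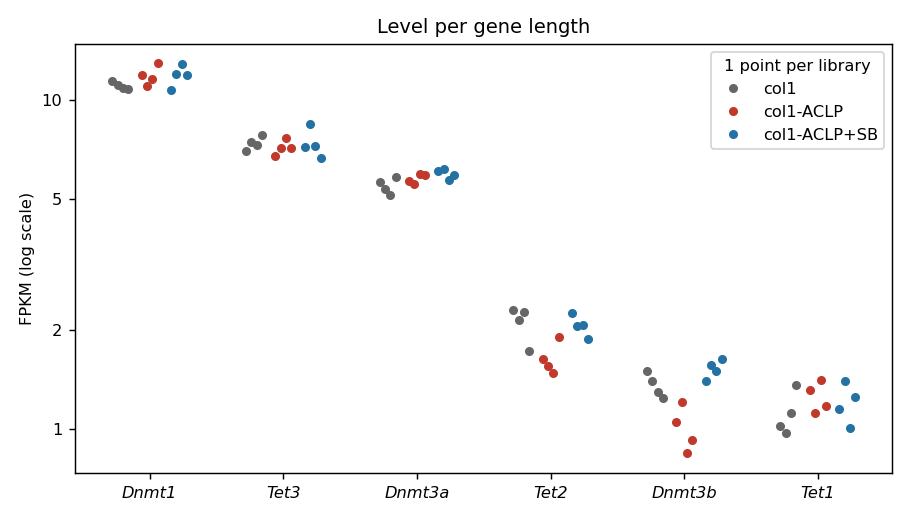
Level of the 6 genes in FPKM (log scale) in each of 12 libraries, 1 point per library, coloured by group. Dnmt1 lies highest (10.8 to 13.0), and Tet2, Dnmt3b and Tet1 lie lowest with neighbouring ranges that overlap.

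Col1-ACLP was compared with col1 to ask how ACLP in the collagen changed RNA levels. Of the 6 genes, Tet2 fell and none rose (edgeR's quasi-likelihood test, Benjamini-Hochberg adjusted p under 0.05 over all tested genes). Of all tested genes 8.41% fell and 9.52% rose in this comparison, so 1 of 6 is close to that background. Tet2, which is the TET gene best known from blood cell development, was at 38.8, 36.3, 38.4 and 29.2 CPM in the 4 col1 libraries. On col1-ACLP it was at 27.6, 26.2, 25.0 and 32.2 CPM. The fourth library of each group reached into the range of the other group, and the remaining 3 col1 libraries lay above all col1-ACLP libraries. The mean went from 35.7 ± 4.45 to 27.8 ± 3.13 CPM (SD, n = 4), a log2 fold change of -0.36 (SE 0.0948, 95% interval -0.56 to -0.17, adjusted p = 0.0074). Raw counts behind these values were 1258 to 1488 on col1 and 749 to 949 on col1-ACLP. Without col1 replicate 2 the log2 fold change was -0.35 (adjusted p = 0.0174). The change stayed inside the size limit of the study's methods, a log2 fold change of 0.58, which 2.36% of tested genes passed downwards and 2.61% upwards.

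Dnmt3b, a de novo methyltransferase and the lowest of the writers in these cells, was at 7.67, 7.15, 6.65 and 6.37 CPM on col1. On col1-ACLP it was at 5.38, 6.16, 4.31 and 4.75 CPM. Every col1-ACLP library lay below every col1 library, a separation that 10.3% of tested genes showed in this direction. Means were 6.96 ± 0.575 and 5.15 ± 0.806 CPM (SD, n = 4), with a log2 fold change of -0.43 (SE 0.153, 95% interval -0.75 to -0.12). The adjusted p of 0.0512 missed the threshold of edgeR's quasi-likelihood test, and the raw counts were 219 to 294 on col1 against 129 to 223 on col1-ACLP. Without col1 replicate 2 the adjusted p was 0.0852. With DESeq2 it was 0.0309, with scaling by library size alone 0.0288, and without col1-ACLP replicate 2 it was 0.0265, each past the threshold.

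The other 4 genes had group ranges that overlapped between col1 and col1-ACLP, and none passed the test. Dnmt1, the maintenance enzyme, ranged from 79.7 to 84.8 CPM on col1 and from 81.4 to 95.6 on col1-ACLP (log2 fold change 0.10, 95% interval -0.025 to 0.23, adjusted p = 0.299). Dnmt3a, the other de novo enzyme, ranged from 86.0 to 97.5 and from 92.7 to 99.1 CPM (0.067, interval -0.044 to 0.18, adjusted p = 0.467). The intervals bound any change of these abundant writers well inside 0.58. Tet1, a TET enzyme with a CXXC domain that binds CpG-rich DNA, ranged from 15.1 to 21.0 and from 17.3 to 21.8 CPM (0.16, interval -0.083 to 0.41, adjusted p = 0.417). Tet3, the most abundant TET RNA, ranged from 117.6 to 130.9 and from 113.1 to 128.7 CPM (-0.042, interval -0.17 to 0.088, adjusted p = 0.736). Exons of Tet3 overlap those of Bola3 on the opposite strand, which had 224 to 591 counts against 3364 to 6283 for Tet3, and the strand setting of the counting is not given in the sources used here. Antisense lncRNAs over the exons of Dnmt3a, Dnmt3b and Tet2 had at most 8, 9 and 4 counts.

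**Figure D2:**
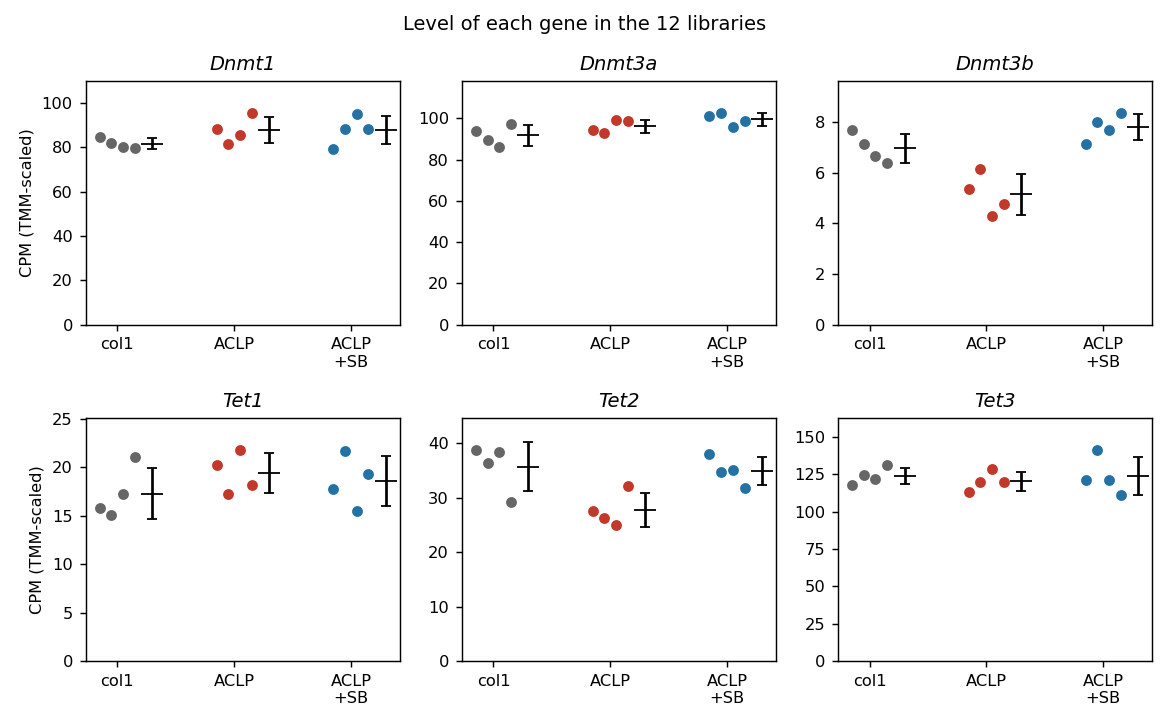
CPM (TMM-scaled) of each gene by group, with 1 point per library and a bar for the mean and SD of 4 libraries beside them. Dnmt3b on col1-ACLP (4.31 to 6.16) lies below both other groups, Tet2 on col1-ACLP (25.0 to 32.2) lies mostly below them, and the other 4 genes overlap between groups.

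Col1-ACLP+SB was compared with col1-ACLP to ask what changed when ALK5 was inhibited on the ACLP matrix. Dnmt3b rose, and it was the 1 gene of the 6 that did. Its 4 libraries were at 7.15, 8.02, 7.70 and 8.37 CPM with SB431542, above each of the 4 without it (4.31 to 6.16), a separation that 3.65% of tested genes showed upwards. The mean was 7.81 ± 0.519 CPM (SD, n = 4) from 239 to 399 raw counts. The log2 fold change was 0.60 (SE 0.153, 95% interval 0.28 to 0.91, adjusted p = 0.0471 by edgeR's quasi-likelihood test), or 1.51-fold. In this comparison 0.571% of tested genes rose, 0.905% fell, and 0.085% (14 genes) rose past the study's limit on size as Dnmt3b did. The adjusted p lay near the threshold. It was 0.0700 with the replicate number as a block, 0.0786 with limma-voom and 0.0080 with DESeq2, and it exceeded 0.05 on leaving out any 1 library other than col1 replicate 2 and col1-ACLP replicate 2 (0.0372 to 0.159 over all 12, highest without col1-ACLP replicate 3).

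Tet2 had 38.0, 34.7, 35.1 and 31.8 CPM with SB431542. The lowest of these was below the highest col1-ACLP library (32.2), and the other 3 lay above all col1-ACLP libraries. The log2 fold change against col1-ACLP was 0.33 (SE 0.0950, 95% interval 0.14 to 0.53), and the adjusted p of 0.0821 missed the threshold. With DESeq2 it was 0.0322, and with no filter on low counts 0.0160. The 4 other genes did not pass the test, with log2 fold changes of 0.0009 for Dnmt1, 0.050 for Dnmt3a, -0.064 for Tet1 and 0.040 for Tet3 and adjusted p from 0.800 to 0.998.

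Col1-ACLP+SB was compared with col1 to ask which differences were left with ALK5 inhibited. None of the 6 genes passed edgeR's quasi-likelihood test or DESeq2, and 1 (Dnmt3a) had an unadjusted p under 0.05. Of all tested genes 4.6% rose and 4.54% fell, and 1.27% and 1.01% did so past the limit on size. Tet2 had a log2 fold change of -0.032 (95% interval -0.22 to 0.16, adjusted p = 0.918), and Dnmt3b one of 0.17 (interval -0.14 to 0.47, adjusted p = 0.623). The interval of Tet2 did not reach the -0.36 of col1-ACLP, and the test of that difference is the comparison of the ACLP groups, which Tet2 missed. Dnmt3a ranged from 95.6 to 102.7 CPM with SB431542 against 86.0 to 97.5 on col1 (0.12, interval 0.0060 to 0.23, adjusted p = 0.217). Dnmt1, Tet1 and Tet3 gave 0.10, 0.098 and -0.0017 (adjusted p = 0.385, 0.734 and 0.993). The 3 comparisons share libraries, since each group enters 2 of them, and so the values for a gene are not independent of each other.

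**Figure D3:**
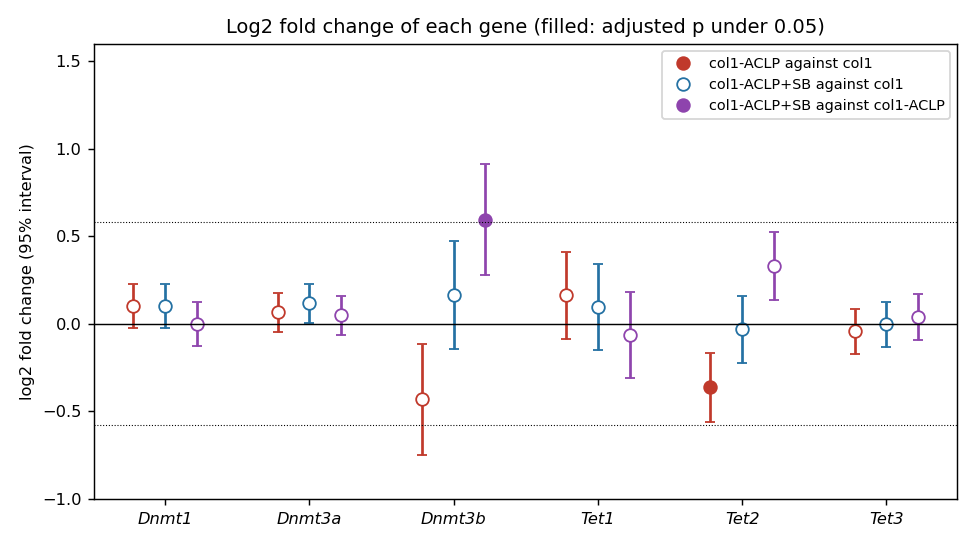
Log2 fold change of each gene in the 3 comparisons, with 95% intervals from the edgeR fit. Filled points passed the adjusted p threshold, dotted lines mark 0.58 in size, and the filled points are Tet2 at -0.36 for col1-ACLP against col1 and Dnmt3b at 0.60 for col1-ACLP+SB against col1-ACLP.

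Within each family the make-up was described as a share of the summed FPKM. On col1, Dnmt3b held 7.59% ± 0.474 of the methyltransferase sum, against 5.42% ± 1.02 on col1-ACLP and 7.88% ± 0.397 once SB431542 was added (SD, n = 4). Dnmt1 held 61.7%, 63.6% and 61.2%, and Dnmt3a held 30.7%, 31.0% and 30.9%. Tet2 held 19.9% ± 2.82, 16.3% ± 1.93 and 19.4% ± 1.65 of the TET sum, and Tet3 held 69.6%, 71.3% and 69.3%. The summed levels overlapped between groups, from 17.4 to 20.1 FPKM for the methyltransferases and from 9.73 to 11.9 for the TET genes. The family sums were thus carried by Dnmt1 and Tet3, and Dnmt3b and Tet2 were minor parts of them.

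Tet2 and Dnmt3b ran together over the libraries, with Pearson's r of 0.66 and Spearman's rho of 0.53 for log2 CPM across 12 libraries. Tet1 and Tet2 had r of -0.59 (rho -0.66), and Dnmt3a and Tet1 had r of 0.58 (rho 0.69). These 12 points share 3 conditions, and the correlations are descriptions.

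**Figure D4:**
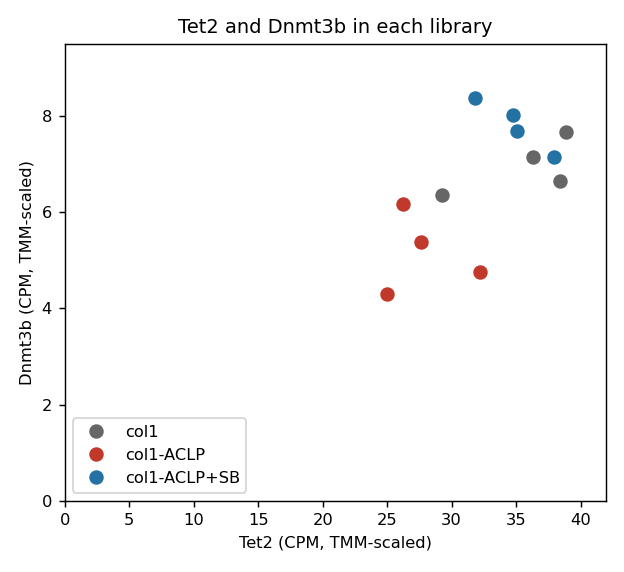
CPM of Tet2 (x axis) and Dnmt3b (y axis) in the 12 libraries, coloured by group. The 4 col1-ACLP libraries lie lowest for Dnmt3b (4.31 to 6.16), and the ranges of col1 (6.37 to 7.67) and col1-ACLP+SB (7.15 to 8.37) overlap in part.

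By the same measure, the genes whose levels ran most like Dnmt3b were Ewsr1 (r = 0.908), Vwa1 (0.889) and Pnma1 (0.882), and those most like Tet2 were Gm38056 (0.922), Fbxo24 (0.916) and Cryl1 (0.902). For Dnmt1 they were A430033K04Rik (0.895), Abitram (0.891) and Nudt18 (0.890), and for Dnmt3a Tut1 (0.912), Gm48684 (0.903) and Serpina3h (0.868). For Tet1 they were Gm45828 (0.934), Gm13493 (0.894) and Slc16a9 (0.875), and for Tet3 Mfrp (0.828), Med15 (0.821) and Tfe3 (0.814). They are the top of 16465 genes over 12 libraries. Without col1 replicate 2, 2 of the 3 genes were again found for Dnmt1, Tet1 and Tet2, 1 for Dnmt3b, and 0 for Dnmt3a and Tet3.

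Partners of the methyltransferases were led by Uhrf1, which brings DNMT1 to hemimethylated DNA. On col1-ACLP 2 of the 9 tested partners rose and 0 fell, with a median log2 fold change of 0.11 beside -0.0099 for all tested genes. Of all tested genes 9.52% rose and 8.41% fell there. Uhrf1 went from 11.5 ± 1.36 to 23.0 ± 1.43 CPM (log2 fold change 1.00, SE 0.105, adjusted p = 6.71e-08), and it remained higher with SB431542 at 19.3 ± 1.63 CPM (0.74 against col1, adjusted p = 1.4e-05). Hells, a chromatin remodeler needed for DNA methylation, rose on col1-ACLP from 9.08 to 13.7 CPM (0.59, adjusted p = 0.0120, and 0.0721 without col1-ACLP replicate 2). The partners with the highest CPM, the deubiquitinase Usp7 and the UHRF1 relative Uhrf2, gave -0.026 (adjusted p = 0.806) and -0.12 (adjusted p = 0.149). Dnmt1, the enzyme that UHRF1 guides, gave 0.10 in the comparison where Uhrf1 gave 1.00, and the difference between these genes was not tested. Between the ACLP groups 0 of 9 partners passed by edgeR or DESeq2, with 1 at an unadjusted p under 0.05.

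Genes of S phase were followed because DNMT1 and UHRF1 act at replication. Of 16 S-phase genes 11 rose and 0 fell on col1-ACLP (median 0.45), and 4 rose and 0 fell on col1-ACLP+SB against col1 (median 0.26). Of all tested genes 9.52% and 4.6% rose in these comparisons. The counts of S-phase genes that rose were 6 to 11 and 2 to 4 on leaving out 1 library, lowest without col1-ACLP replicate 2 and col1 replicate 1, respectively. Mcm5 and Mcm2, subunits of the replicative helicase, rose by 0.70 and 0.62 (adjusted p = 6.36e-05 and 1.57e-05), and Cdc6 and Ccne1, which act at the start of S phase, by 0.90 and 0.75 (adjusted p = 0.0147 and 0.0223). Cdc6 did not pass without col1 replicate 2 or col1-ACLP replicate 2 (adjusted p up to 0.0505), nor did Ccne1 without col1 replicates 3 or 4 or col1-ACLP replicates 2 or 4 (up to 0.0811). Rrm1 and Mcm6, the S-phase genes with the highest CPM, rose by 0.23 and 0.38. The summed level of the list was 313 to 330 CPM on col1, 372 to 406 on col1-ACLP and 351 to 364 on col1-ACLP+SB. These 3 ranges did not overlap, and their part in the levels of Uhrf1, Hells or the 6 genes was not tested. With SB431542 against col1-ACLP, Mcm4 fell by 0.32 (adjusted p = 0.0253), a call lost without any 1 of the col1-ACLP libraries or col1-ACLP+SB replicates 2 or 4 (up to 0.0879).

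Among partners of the TET enzymes, 3 of 7 rose and 1 fell on col1-ACLP (median 0.10), and 3 rose with SB431542 against col1 (median 0.21). Of all tested genes 9.52% rose and 8.41% fell on col1-ACLP, and 4.6% rose with SB431542 against col1. Ogt, the O-GlcNAc transferase that binds TET proteins and had the highest CPM of the list, fell from 384 ± 17.5 to 335 ± 4.16 CPM (log2 fold change -0.20, SE 0.0481, adjusted p = 0.0042). With SB431542 it stood at 388 ± 24.9 CPM, having risen by 0.21 against col1-ACLP (adjusted p = 0.0226). That rise did not pass without col1-ACLP replicates 1, 2 or 4 or col1-ACLP+SB replicates 1 or 2 (adjusted p up to 0.0895). Hif1a, the oxygen-sensing transcription factor, rose by 0.39 and 0.31 in the comparisons of col1-ACLP and col1-ACLP+SB with col1 (adjusted p = 2.06e-06 and 0.000127). Gadd45b and Gadd45g, adaptors linked to demethylation, rose by 0.49 and 0.51 on col1-ACLP and by 0.44 and 0.45 with SB431542 against col1. Of 10 tested genes for excision and repair of the oxidised base, 1 fell on col1-ACLP and 0 rose (median 0.068), near the 8.41% of all tested genes that fell. That gene was Neil1, a glycosylase, at 8.25 ± 0.832 and 5.40 ± 1.21 CPM (-0.61, SE 0.160, adjusted p = 0.0080). Parp1 and Lig3, the repair genes with the highest CPM, gave -0.029 and 0.065 (adjusted p = 0.853 and 0.654), and Tdg, the glycosylase that acts after TET, gave 0.010 (adjusted p = 0.973).

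The supply of the methyl donor was described by the RNA of its enzymes. Of 12 genes, 6 rose and 0 fell on col1-ACLP (median 0.19), 4 rose with SB431542 against col1 (median 0.16), and 2 fell with SB431542 against col1-ACLP (median -0.11). Of all tested genes 9.52% rose and 8.41% fell on col1-ACLP. With SB431542, 4.6% of them rose against col1 and 0.905% fell against col1-ACLP. Mthfd2, a mitochondrial one-carbon enzyme, was at 23.5 ± 0.855 CPM on col1, against 63.2 ± 8.95 on col1-ACLP and 45.9 ± 2.84 with SB431542. It rose by 1.43 (adjusted p = 2.55e-12) and fell by 0.46 with SB431542 (adjusted p = 0.0035). Shmt2, which feeds serine into this pathway, rose by 0.89 (adjusted p = 4.99e-10) and fell by 0.33 (adjusted p = 0.0151) in the same comparisons, the fall being lost without replicate 4 of col1-ACLP or of col1-ACLP+SB (adjusted p = 0.0828 and 0.0711). Mat2a, the catalytic subunit of S-adenosylmethionine synthetase and the gene with the highest CPM here, gave 0.053 (adjusted p = 0.609). Among the others that rose were Mthfd1, a cytosolic folate enzyme, and Ahcy, which acts in methionine recycling, and the synthetase did not pass. For 2-oxoglutarate, the TET cosubstrate, 3 of 13 genes rose and 2 fell on col1-ACLP (median 0.039), beside the 9.52% and 8.41% of all tested genes. Idh1, the cytosolic isocitrate dehydrogenase, rose by 0.40 (adjusted p = 4.02e-06), whereas the mitochondrial Idh2 fell by 0.44 (adjusted p = 2.14e-06). Ogdh, a subunit of the enzyme that consumes 2-oxoglutarate, also rose, but not without col1 replicate 1 or col1-ACLP replicates 1 or 4, or with library size alone (adjusted p up to 0.0627). The fall of Idh3b (by 0.15, adjusted p = 0.0485) passed in 7 of 20 alternatives and was lost without any 1 of 11 libraries (up to 0.177), so 1 gene fell in those fits. Glud1, with the highest CPM of the list, gave 0.041 (adjusted p = 0.598).

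**Figure D5:**
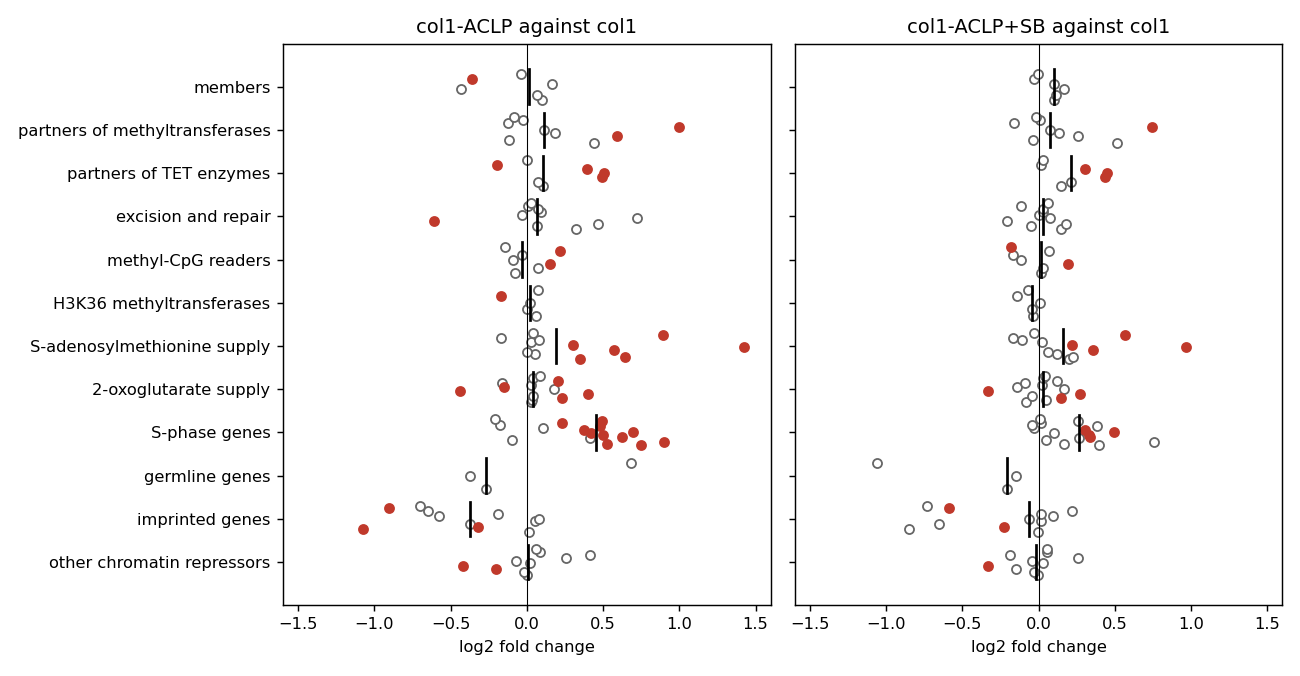
Log2 fold change of the 6 genes (members) and of the tested genes of 11 lists, for col1-ACLP against col1 (left) and col1-ACLP+SB against col1 (right). Filled points passed the adjusted p threshold and black bars are medians, and the S-phase list lies farthest to the right (0.45 and 0.26).

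Genes listed as readers of methylated CpG were described next. Mbd3 is listed by family and is not taken here as a protein that binds the mark. On col1-ACLP 2 of 7 rose and 0 fell (median -0.035), beside 9.52% and 8.41% of all tested genes. The 2 that rose were Mbd3, a subunit of the NuRD complex, by 0.15 (adjusted p = 0.0420) and Zbtb38 by 0.22 (adjusted p = 0.0138). Mbd3 did not pass there in 9 of 20 alternatives (adjusted p up to 0.184), 7 of which left out 1 library, col1 replicate 2 among them (0.0907). Zbtb38 did not pass without col1-ACLP replicate 4 (0.0640), where the count that rose was 0, or with library size alone (0.0633). With SB431542 against col1, Mbd3 rose by 0.20 (adjusted p = 0.0157) and Zbtb4 fell by 0.18 (adjusted p = 0.0302). The first call was lost without col1 replicate 1 or col1-ACLP+SB replicate 2 (up to 0.0692), and the second without col1 replicates 3 or 4 or col1-ACLP+SB replicates 1 or 2 (up to 0.112). Of 5 H3K36 methyltransferases, whose mark DNMT3 enzymes read, 1 fell on col1-ACLP (Nsd3, by 0.17, adjusted p = 0.0319), beside 8.41% of all tested genes. Nsd3 did not pass without replicates 1 or 3 of col1 or 1 or 2 of col1-ACLP (up to 0.158), and Ash1l, with the highest CPM, gave 0.056 (adjusted p = 0.584). Of 10 other chromatin repressors, 2 fell on col1-ACLP and 0 rose (median 0.0098), beside 8.41% and 9.52% of all tested genes. The 2 that fell were Ezh1, the Polycomb methyltransferase, by 0.42 (adjusted p = 6.78e-08), and Ehmt2, a H3K9 methyltransferase, by 0.20 (adjusted p = 0.0060). Trim28, a corepressor, gave 0.061 (adjusted p = 0.505).

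Of 12 germline genes that DNA methylation is known to hold silent, 10 were under 1 CPM in every library. Sycp1 and Brdt had group means above that level, and 3 of the 12 genes were tested. None of the 3 passed in any comparison by edgeR or DESeq2, with 1 at an unadjusted p under 0.05 on col1-ACLP. Sycp1, a synaptonemal complex gene, was at 6.83 ± 1.33 CPM on col1 and 5.29 ± 0.375 on col1-ACLP (log2 fold change -0.37, adjusted p = 0.145), and Brdt, a testis bromodomain gene, was at 4.68 ± 0.821 and 3.88 ± 0.798 (-0.27, adjusted p = 0.454). Of 16 imprinted genes, which are expressed from 1 parental allele, 11 were tested, 3 fell and 0 rose on col1-ACLP (median -0.37). Of all tested genes 8.41% fell and 9.52% rose there. Plagl1, a zinc finger transcription factor, fell on col1-ACLP to 10.1 ± 1.72 CPM (-0.91, adjusted p = 1.33e-05) and was at 12.6 ± 2.05 with SB431542 (-0.59 against col1, adjusted p = 0.0034). H19, a growth-restraining lncRNA, fell from 4.29 ± 1.79 to 2.03 ± 0.522 CPM (-1.08, adjusted p = 0.0126), and the call was lost without col1 replicate 2 (-0.83, adjusted p = 0.0684). Igf2r, the receptor that clears IGF2, fell from 1103 ± 56.3 to 883 ± 47.1 CPM (-0.32, adjusted p = 2.57e-05), and Grb10 gave 0.014 (adjusted p = 0.886). The table does not separate alleles.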

How the data were processed

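RNA-seq counts of 10T1/2 cells were analysed, 12 libraries in 3 groups assigned from the sample labels. The authors sequenced poly(A) RNA as paired 150-base reads, mapped them with HISAT2 to GRCm39 per their methods (the submitters' processing notes name mm10) and deposited raw counts per gene, without normalization. Gene coordinates in the table match GRCm39. The counting tool, its strand setting and its handling of reads mapping to several places are not given in the sources used here.

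The test was edgeR 4.0.16 in R 4.3.3 (filterByExpr, TMM, glmQLFit and glmQLFTest, group as the only term, all 12 libraries in 1 fit), with Benjamini-Hochberg adjustment over 16465 genes. The study's methods use DESeq2, which was run as an alternative (1.42.0), as was limma-voom (limma 3.58.1). A gene rose or fell at an adjusted p under 0.05. TMM factors ran from 0.966 to 1.02, and the common biological coefficient of variation was 0.153, so the difference between replicates outweighs counting error. CPM used TMM scaling, and correlations used log2 CPM with a prior count of 2. P-values set a difference of group means against the spread between libraries within groups, with 1 estimate per gene that all 3 groups share. The study calls the 4 libraries of a group biological replicates, and the labels do not say whether they were separate cultures. The members and gene lists were chosen with earlier results of these data known. From each list, the text names genes past the study's limit on size, up to 4 per comparison, and the 2 with the highest mean CPM. Other list genes (Tdg, Gadd45b, Gadd45g, Mthfd1, Ahcy, Idh1, Idh2, Ogdh, Idh3b, Mcm4, Zbtb38, Ezh1, and Dnmt3l) were named after their values were seen. Other settings comprised size factors, filters, a replicate block, pairs of groups, glmTreat and each library left out.

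Same-numbered libraries of different groups did not deviate together (r of deviations -0.0372 to 0.0360), so the numbers do not pair them. The procedure was tested on simulated counts. It fell short of the first criterion set for it, on the share of all changed genes recovered, because changes in low genes were missed. The criterion was then restricted to genes of higher level, with the procedure unchanged, so a change in a low gene can be missed here. Values of some genes counted in the lists are not reported here. Protein sequences were not used here.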

Additional observations from a re-analysis of the deposited data

How the results depend on the processing

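Of 360 values from 20 alternatives for each of 18 results (6 genes, 3 comparisons), 322 kept their direction and their side of the threshold, 15 lost and 5 gained a call, and 18 changed sign. The fall of Tet2 on col1-ACLP passed in all 20 (adjusted p 0.0006 to 0.0403, log2 fold change -0.45 to -0.31). The 15 lost calls are the rise of Dnmt3b with SB431542 (log2 fold change 0.52 to 0.70, adjusted p 0.0080 to 0.159). With the replicate number as a block, its log2 fold change was 0.61 and adjusted p 0.0700, and that of Tet2 on col1-ACLP was -0.36 with adjusted p 0.0151. The block changed no other call among the 6 genes. The signs that changed were of values near 0. Dnmt1 with SB431542 against col1-ACLP gave -0.00075 with RLE factors, -0.0042 with no filter and -0.00061 with DESeq2, and -0.042 to 0.046 on leaving out 1 library. Leaving out 1 library gave -0.15 to 0.014 for Tet1 and -0.030 to 0.086 for Tet3 against col1-ACLP, and -0.12 to 0.013 for Tet2 and -0.071 to 0.046 for Tet3 against col1.

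On col1-ACLP against col1, 1 of the 6 members was called, against 0 with the limit on size or glmTreat, 2 with library size alone or DESeq2, and 1 to 2 on leaving out 1 library. With SB431542 against col1-ACLP, 1 of the 6 members was called, against 0 with glmTreat, a mean of at least 10 counts, the replicate block, limma-voom or only the 2 groups, 2 with DESeq2, and 0 to 1 on leaving out 1 library.

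Of all genes, 1568 rose and 1385 fell on col1-ACLP against col1 (430 and 389 with the limit on size, 144 and 86 with glmTreat, 1159 and 1865 with library size alone). With SB431542 against col1, 757 and 747 did (209 and 167, 54 and 27, and 643 and 894 in the same order). With SB431542 against col1-ACLP, 94 and 149 did (14 and 7 with the limit on size, 0 and 0 with glmTreat, 157 and 109 with library size alone, 180 and 248 with no filter, 240 and 342 with DESeq2). The replicate block gave 61 that rose there, and leaving out 1 library gave 32 to 116 that rose and 66 to 172 that fell.

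Ranked by CPM in place of FPKM, Tet3 was 1, Dnmt3a 2, Dnmt1 3, Tet1 5 and Dnmt3b 6. Of the 3 genes most like each, leaving out col1 replicate 2 kept 0 for Dnmt3a and Tet3 and 1 for Dnmt3b. The cause of these differences was not tested. Dnmt3b rests on 129 to 399 counts a library, the fewest of the 6.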
